A study of Danio rerio with 12 samples.

Results

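The regions described here are stretches of the zebrafish genome that carried little DNA methylation in control haemogenic endothelial cells and carried still less after knockdown of dnmt3ba. They were selected from the authors' deposited table of 7550 regions by 4 conditions, namely a numbered chromosome other than chromosome 4, a lower level in morphants than in controls, fewer than 10 CpG sites per 100 bases, and a control level under 40%. These conditions left 1187 of the 7550 regions. Each step narrowed the table, from 6282 regions on numbered chromosomes to 5832 outside chromosome 4, 5237 that lost methylation, 4525 of these that were sparse in CpG sites, and finally 1187. Because the control level and the difference chose the members, their levels below are a description and carry no test.

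Haemogenic endothelium lines the embryonic aorta and gives rise to blood stem and progenitor cells. Its cells were sorted at 36 hours post-fertilisation, about 5000 cells per sample, from the trunk of Tg(kdrl:mCherry/runx1:en-GFP) embryos as cells carrying both reporters, so that both groups shared the 2 transgenes. The control group was labelled WT, and the other group was injected with a morpholino, an antisense oligonucleotide that lowers the protein output of its target, against dnmt3ba. The labels do not say what, if anything, the controls were injected with, so an effect of injection and an effect of the knockdown cannot be told apart. Each assay, whole-genome bisulfite sequencing and RNA-seq, had 3 biological replicates per group. The methylation table gives 1 level per group and region, with no value per replicate and no read coverage, so the depth behind each level is unknown and no error can be attached to a single level.

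In vertebrates most CpG sites outside CpG-rich promoters are methylated. De novo enzymes of the DNMT3 family, to which dnmt3ba belongs, place the mark, maintenance enzymes copy it at replication, and TET enzymes start its removal. Sparse stretches of low but not absent methylation are known in mammals from distal regulatory elements bound by transcription factors, while CpG-dense promoters usually lack the mark altogether. For the regions described here, sparse means only that they lay under the density limit of the selection. That limit was wide, and it kept 4525 of the 5237 losing regions to which it was applied. The density of CpG sites in the genome was not computed. Whether these regions are poorer in CpG sites than the genome, or like the mammalian stretches in density, was therefore not tested. Whether they are regulatory elements was not tested either, since no annotation of their genome build was used.

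The expression table, made from other aliquots of sorted cells, served to check the target and the sort. dnmt3ba was read at 122, 271 and 113 TPM (a transcript level scaled for gene length and library size) in controls 1, 2 and 3 and at 112, 197 and 159 TPM in morphants 1, 2 and 3. The groups overlapped, and since a morpholino need not lower the amount of its target transcript, these values do not check the labels. The markers of the sort were present in all 6 libraries, with runx1 at 13.7 to 33.0 TPM in controls and 7.15 to 11.4 TPM in morphants. The 6 blood-forming markers, runx1 among them, summed to 579.9 to 663 TPM in controls and 556 to 594 TPM in morphants, which overlapped. Within this list, runx1, gfi1aa, myb and tal1 were lower in every morphant than in every control. Only lmo2 was higher in every morphant, and the values of gata2b overlapped. The overlap of the sums therefore does not mean that the values of each single marker overlapped. The share of all genes that separate the groups in this way was not computed, here or for the lists below. Whether these markers stand out from other genes was therefore not tested. For kdrl the values were 16.6 to 60.6 TPM in controls and 22.8 to 122 TPM in morphants. The 9 endothelial markers found of 10 listed summed to 1735 to 2154 TPM in controls and 3077 to 3453 TPM in morphants. Of these, plvapb, cldn5b, pecam1 and stab2 were higher in every morphant than in every control. For stab2 the separation was narrow, with the highest control just under the lowest morphant. The values of fli1, egfl7, cdh5, tie1 and kdrl overlapped between the groups. Markers of other cells moved between the libraries too. The 10 skeletal muscle markers summed to 13253 to 63643 TPM in controls and 8767 to 19957 TPM in morphants. The 7 erythroid markers summed to 7426 to 20354 TPM and 1893 to 7132 TPM, respectively, and no marker of any list was at 0. The muscle sums overlapped, and of the single muscle markers only myhz2 was lower in every morphant than in every control. The erythroid sums did not overlap. Of the erythroid markers, slc4a1a, alas2, hbae3 and hbbe1.3 were lower in every morphant than in every control, while gata1a, hbbe1.1 and hbae1.1 overlapped. Each methylation level is an average over the sorted cells, so a lower level per cell and a changed mixture of cells cannot be told apart, and the part of other cell types in the methylation levels was not tested.

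The members went from low methylation to levels that in most of them were under 10%. The median control level was 28.5%, with a range from 11.1% to just under the limit of 40%, and the median morphant level was 6.49%, with a range from 0.172 to 27.7%. The median difference was -19.6 percentage points, and the differences ran from -38.0 to -10.002 points. In morphants 802 of the 1187 regions (67.6%) lay under a level of 10%, 490 (41.3%) under 5% and 190 (16.0%) under 2%. At the other end 4 regions were still above 25%. Read as the share of the control level that was kept, the median region kept 23.8%, 203 regions kept less than 10%, and 96 kept 50% or more. The deposited table holds no difference smaller than 10.002 points, so no member could have a control level under that value, and regions with smaller losses cannot be seen here.

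**Figure D1:**
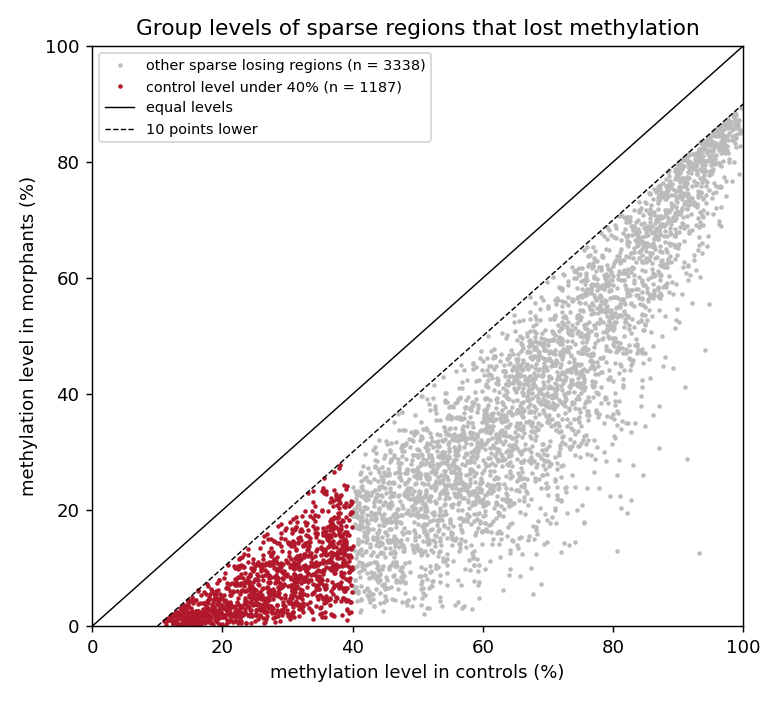
Methylation level in controls (horizontal axis, %) against the level in morphants (vertical axis, %) for the 4525 sparse regions that lost methylation outside chromosome 4, each point a region and each level the authors' group value. The 1187 members (red, control level under 40%) fill the lower left corner, and no point lies between the line of equal levels and the dashed line at 10 points lower.

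The largest losses took regions from just under the control limit to nearly no methylation. On chromosome 13, the region chr13:15235914-15236075 went from 39.1% in controls to 1.11% in morphants over 6 CpG sites. That is a loss of 38.0 points (q = 0.0041 in the authors' deposited table). The region chr15:25760574-25760728 went from 39.7 to 2.39% over 9 sites, and chr9:32105600-32105713 from 39.4 to 2.31% over 5 sites. The fourth was chr6:59409517-59409753, at 38.3 and 1.91% over 6 sites, and the sixth was chr11:11401636-11401893, at 39.2 and 3.01% over 7 sites. These 5 regions rested on few sites, between 5 and 9. The fifth of the 6 largest, chr23:18057713-18058095, covered 16 CpG sites in 382 bases and went from 39.1 to 2.85% (authors' q = 1.7e-07). Since a loss cannot exceed the control level, all 6 have control levels between 38.3 and 39.7%. In all, 74 members lost more than 30 points and 275 lost less than 15.

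The 4 regions that came closest to no methylation in morphants started from the bottom of the control range. The lowest morphant level, 0.172%, was at chr3:49383085-49383378, which had 11.4% in controls and covered 12 CpG sites. Next were chr5:67799407-67799511, with 13.2% in controls and 0.179% in morphants over 8 sites, and chr16:14423931-14424127, with 14.4 and 0.207% over 10 sites. The fourth, chr10:6745976-6746195, had 14.05 and 0.267% over 7 sites. The lowest control level of any member was 11.1%, at chr8:24444493-24444677, where the morphant level was 0.833%. The others in the bottom 4 by control level, chr13:1305641-1305808 and chr8:18354199-18354378, had 11.3 and 11.4% in controls and 1.097 and 0.755% in morphants. These differences, of 10.2 to 14.2 points, lie near the smallest the table holds, and with control levels this low a loss of that size leaves a region little methylation to keep.

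The members best supported by the authors' statistic were the longer ones. The smallest q of any member, 4.6e-34, belonged to chr19:14190571-14191751, a region of 1180 bases and 57 CpG sites whose level was 35.5% in controls and 4.67% in morphants. On chromosome 16, chr16:36433695-36434405 (35 sites) went from 34.8 to 6.42%, with q = 3.4e-24. The region chr16:54777401-54778360 (49 sites) went from 31.5 to 4.95%, with q = 3.1e-21, and chr15:29538067-29538988 (47 sites) from 22.5 to 3.71%, with q = 2.0e-20. All 4 kept between 13.2 and 18.4% of the control level. The longest member, chr22:14785472-14787606, was 2134 bases long with 60 CpG sites, and went from 32.5 to 12.0%. It kept 36.8% of the control level. The region chr8:39471112-39472710, with 55 sites, went from 38.5 to 18.2% and so kept 47.1%, and chr24:24521927-24523173, also with 55 sites, went from 27.4 to 7.55%. The remaining pair of the 4 longest, chr2:23442748-23444306 and chr23:40778617-40780070, had 32 and 36 sites and went from 38.7 to 14.2% and from 28.3 to 7.75%.

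Most members were short. Their median length was 292 bases, with the middle 50% between 170 and 462 bases, and 27 reached 1000 bases while 113 were under 100. The median number of CpG sites was 14, from 5 to 60, and 80 members had the smallest number the table holds, 5. The median density was 4.85 sites per 100 bases, and the rule caps it at 10. Members with more sites kept more of their methylation, and they also had higher control levels. Those with 5 to 9 sites (310 regions) had median levels of 26.3% in controls and 3.61% in morphants. Those with 20 to 29 sites (228 regions) had 31.3 and 9.91%, and the 75 with 30 to 60 sites had 33.9 and 12.0%. The median loss differed less between these classes, at -20.9 points for 5 to 9 sites, -18.6 for 20 to 29 and -19.8 for 30 or more. Members with few sites entered the table at a larger q (median 0.014 for 5 to 9 sites against 2.8e-08 for 30 or more), and what the q threshold kept out of the classes with few sites cannot be seen. Across the 1187 members, which share the same libraries, Spearman's rho was -0.61 between the number of sites and q, and 0.69 between the control and the morphant level. For CpG density and the morphant level it was -0.02. Between the control level and the share kept it was 0.44, and site number and control level were not separated in the classes above.

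Set beside the other sparse regions that lost methylation, the members kept a smaller share of what they had. The other 3338 sparse losing regions had control levels of 40% or more. Members with control levels of 10 to 20% kept a median of 13.5%, those with 20 to 30% kept 22.1%, and those with 30 to 40% kept 31.2%. The share went on rising above the limit, to 41.8% at control levels of 40 to 50%, 55.7% at 60 to 70% and 85.0% at 90 to 100%. In points, the median loss was -13.5 in the lowest band, -23.9 at 30 to 40%, -29.7 at 50 to 60% and -14.2 in the highest band. There was no break at 40%, and the limit divides a continuous range. Just inside it were chr21:20143473-20143647, at 39.997% in controls and 13.9% in morphants, and chr10:25498719-25499459, at 39.973 and 19.8%. Just outside were chr15:6135992-6136203, at 40.017 and 17.1%, and chr2:1622939-1623142, at 40.037 and 18.9%. The smallest difference in the table caps the share that a region with a low control level can keep, so the order of the lowest bands is in part set by the table's own threshold, and no test of it was made. Regions also lay close to the density limit on both sides, but levels by band of density were not computed. The members just inside it, chr9:30859818-30859919 and chr7:63641291-63641372, had 9.90 and 9.88 sites per 100 bases. They went from 34.3 to 10.4% and from 36.8 to 10.2%. Just outside, both at 10 sites per 100 bases, were chr7:11690182-11690262, at 32.9 and 2.66%, and chr3:49372490-49372580, at 30.5 and 2.52%.

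**Figure D2:**
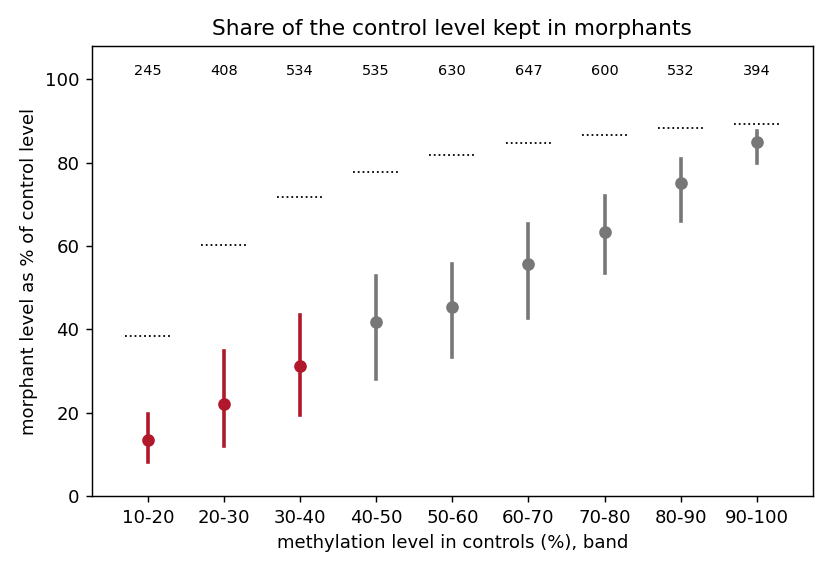
Morphant level as a percentage of the control level, by band of control level, for the 4525 sparse regions that lost methylation; points are medians over regions, bars the middle 50%, numbers on top the regions per band, and dotted lines the largest share a region at the band's median control level could keep with a loss of 10 points. The 3 red bands are the members, at medians of 13.5, 22.1 and 31.2%, and the grey bands rise to 85.0%.

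Nearly all sparse regions with low levels that the authors listed had moved downwards, as had the table as a whole, in which 6807 of 7550 regions (90.2%) lost methylation. Among sparse regions outside chromosome 4 with control levels under 40%, 1187 of 1284 (92.4%, exact binomial 95% interval 90.9 to 93.8%) lost methylation and 97 gained it. Among those with higher control levels, 3338 of 3682 (90.7%, 89.7 to 91.6%) lost it. A fairer counterpart takes the group with the higher level. Where that level was under 40%, 1187 regions lost and 32 gained, a losing share of 97.4% (96.3 to 98.2%). Where it was 40% or more, the share was 89.1% (88.0 to 90.1%). The intervals cover counting error alone, regions are not replicates, and no value per replicate allows a test of these differences. The 32 gaining regions went from a median of 10.3% in controls to 28.6% in morphants, and had a median length of 217 bases and a median of 12.5 CpG sites.

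Members lay on all 24 chromosomes considered, in differing numbers. Chromosome 15 held the most, 84, and chromosome 18 the fewest, 25. The span of each chromosome was taken from its start to the end of its last deposited region. Per megabase of this span, chromosome 15 held 1.77 members, chromosome 8 held 1.42, chromosome 22 held 1.41 and chromosome 18 held 0.49. The median over chromosomes was 0.897. As a share of each chromosome's sparse losing regions, members ran from 17.9% on chromosome 14 (30 of 168) to 38.2% on chromosome 22 (55 of 144), with 33.3% on chromosome 15 (84 of 252). The exact binomial 95% intervals were 12.4 to 24.5% for chromosome 14 and 30.2 to 46.7% for chromosome 22. These 2 chromosomes were named as the extremes after their values were seen. Chromosome 15 was also the one whose members lost least, with a median difference of -16.3 points and a kept share of 33.4%. Chromosome 7 had the largest median difference, -21.3 points, and the highest median control level, 32.0%. The smallest kept share was on chromosome 23, at 15.7%. Members lay within 10% of the span from either end of a chromosome in 282 of 1187 cases (23.8%, 21.4 to 26.3%), while for the other sparse losing regions it was 604 of 3338 (18.1%, 16.8 to 19.4%). Gaining regions lay there in 27.4% of cases, and those with control levels under 40% in 36.1% (26.6 to 46.5%), so this placement was not confined to the members.

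**Figure D3:**
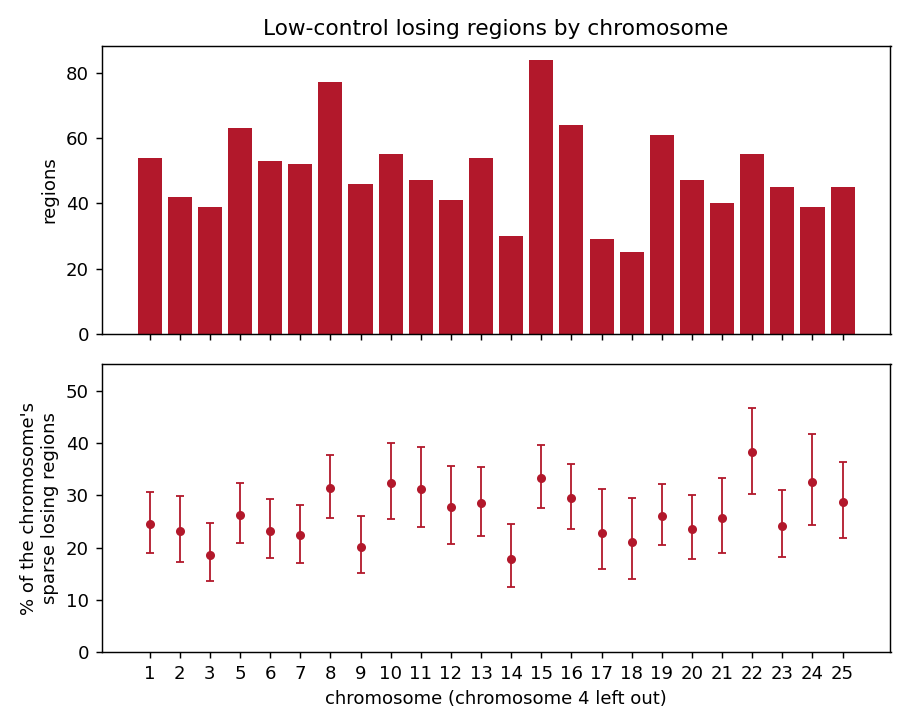
Number of low-control losing regions per chromosome (top) and their percentage among the chromosome's sparse losing regions (bottom, with exact binomial 95% intervals, which cover counting error alone). Chromosome 15 holds the most members, 84, and the share runs from 17.9% on chromosome 14 to 38.2% on chromosome 22.

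Many members lay near other regions that had lost methylation. For 537 members (45.2%) another deposited region of any class lay within 10000 bases, and 524 of those nearest neighbours (97.6%) had also lost methylation while 13 had gained it. The share of near neighbours that lost methylation was close to this for the other sparse losing regions too, at 97.3%. The share with a near neighbour was 45.3% for sparse losing regions with control levels of 40 to 70% and 37.2% for those at 70% and over, and 14.7% for gaining regions. Of the members' near neighbours 247 (46.0%) had a control level under 40% themselves, and 56 (10.4%) had one of 70% or more. For the other sparse losing regions as a whole the 2 shares were 21.8% and 36.7%. Those with control levels of 40 to 70% had 30.6% and 19.8%, and those at 70% and over had 9.15% and 61.3%. Near neighbours of like control level were therefore not confined to the members. Because a caller can divide a single stretch into several regions, neighbours are not independent observations. The smallest gap between a member and its nearest region was 1 base. When members alone were joined across gaps of up to 10000 bases, 290 of the 1187 (24.4%) fell into 130 runs, of which 109 were pairs, 15 were triplets, 3 held 4 members and 3 held 5. For each run the median difference between neighbours was taken. The median of these over the 130 runs was 5.30 points for the control level and 3.25 points for the morphant level. All members have control levels between 11.1 and 40%, which limits such differences, and members that are not neighbours were not compared. The 130 runs held 160 pairs of neighbouring members. The 3338 other sparse losing regions, joined in the same way, gave 628 such pairs, so lying in runs was not confined to the members. Per region, this larger and so denser set gave more pairs than the members did. The densest megabase, from 9 to 10 Mb on chromosome 15, held 19 members among 35 sparse losing regions. Next came 12 members each at 34 to 35 Mb on chromosome 8 and at 36 to 37 Mb on chromosome 25. Of 1279 such bins, 651 held a member and 28 held 5 or more.

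Of the 6 runs with 4 or 5 members, 4 were nearly evenly spaced. The run on chromosome 22 (chr22:26360737-26380049) held 5 members with lengths of 561, 567, 561, 707 and 567 bases and with 24, 27, 26, 28 and 26 CpG sites. Their starts were 4688, 4692, 4511 and 4854 bases apart. Their control levels were 35.3, 35.8, 39.7, 37.9 and 38.7%, and their morphant levels 14.6, 11.1, 12.0, 15.9 and 12.3%. Apart from the one of 707 bases, these regions were alike in length, and all were alike in number of sites and in level. The control limit and the smallest difference in the table bound the levels of every member. Likeness in level is therefore in part set by the selection, and it was not compared with members outside runs.

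The run of 5 on chromosome 13 (chr13:25341368-25360350) had the same kind of spacing, with starts 4741, 4737, 4542 and 4740 bases apart. Its members had control levels of 24.9, 23.9, 31.2, 24.1 and 24.4% and morphant levels of 6.35, 1.94, 8.07, 7.76 and 4.02%. A second run on the same chromosome, chr13:25313351-25327920, ended shortly before it and held 4 members with starts 4652, 4736 and 4846 bases apart. Control levels there were 25.1, 28.4, 19.4 and 39.6%, and morphant levels 8.03, 10.9, 3.64 and 8.38%. On chromosome 6, 4 members in chr6:24258929-24273203 were 4691, 4367 and 4636 bases apart. They went from 39.6, 39.8, 31.0 and 30.2% in controls to 13.4, 9.69, 11.04 and 12.1% in morphants.

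The longest run by span, chr15:9660191-9689930, lay in the densest megabase. Its 5 members were 8786, 8251, 8467 and 3967 bases apart, with control levels of 28.98, 22.4, 25.97, 22.6 and 17.7% and morphant levels of 13.8, 10.4, 10.2, 11.6 and 7.29%. A pair of losing regions that are not members, with control levels of 52.0 and 47.1%, lay between them. A run of 4 on the same chromosome, chr15:9790566-9805340, went from 21.8, 34.9, 25.4 and 23.1% to 10.4, 14.7, 11.1 and 10.4%. In these 2 runs the losses were 10.4 to 20.1 points, and in those of chromosomes 6, 13 and 22 they were 15.7 to 31.3 points.

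**Figure D4:**
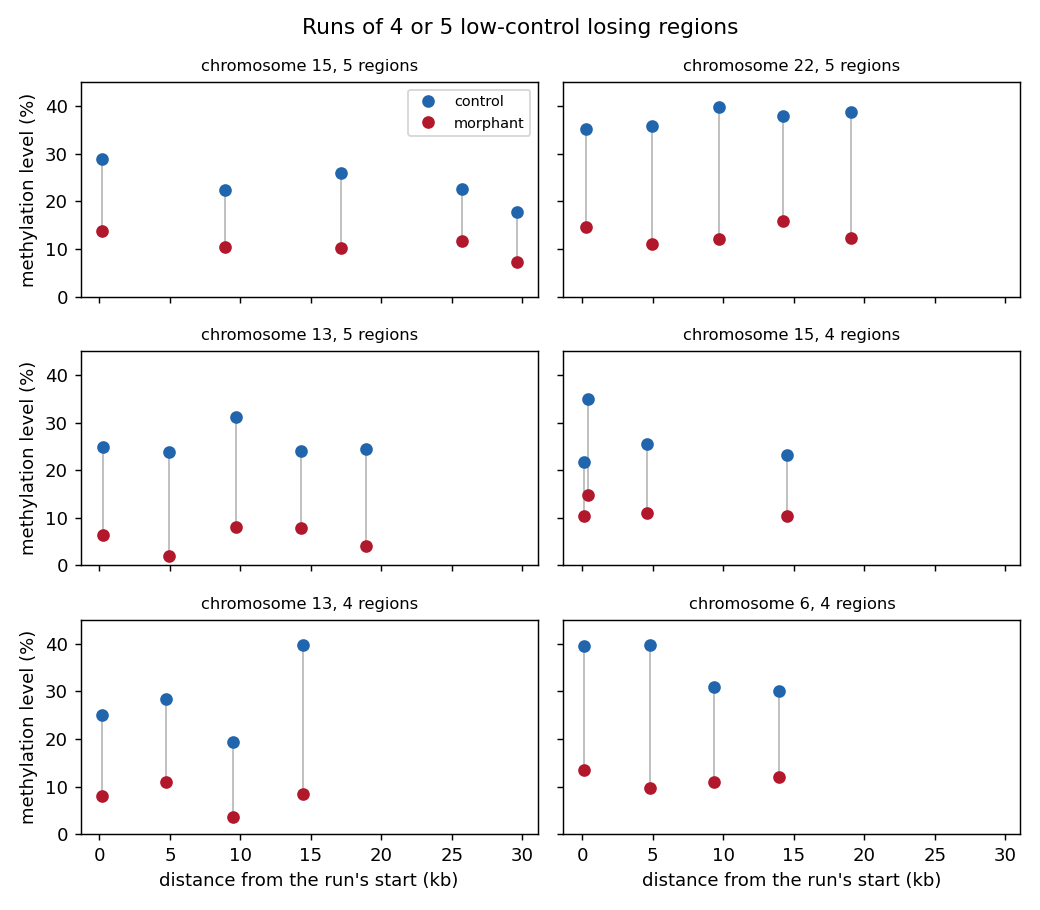
Methylation level (%) of the members in the 6 runs of 4 or 5 members, in controls (blue) and morphants (red), against distance from the start of the run (kb); each point is the authors' group level of a region and has no replicate error. The morphant level is lower in each of the 27 regions because the rule chose only such regions. The points on chromosomes 6, 13 and 22 stand at nearly even distances.

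Over all members, 158 pairs of neighbours in a run had starts less than 10000 bases apart, and 74 of these were less than 1000 bases apart. A second group lay at 4500 to 5000 bases, with 17 pairs, against 7 in the class just below and 0 in the class just above. Of these 17, 13 came from the 4 runs on chromosomes 6, 13 and 22, so they are few loci. Among the other sparse losing regions the class from 4500 to 5000 bases held 14 pairs, between 23 in the class below and 11 above. Member pairs also numbered 6 at 8000 to 8500 bases and 7 at 8500 to 9000, with 1 in the class on either side. The steps of 8786, 8251 and 8467 bases in the longest run of chromosome 15 were among them. The other sparse losing regions had 12 and 11 pairs in these classes. No sequence was compared here, and whether the regions of these runs share sequence or reads was not tested. Without the 27 members in runs of 4 or more, an alternative chosen after seeing the data, the median control level was 28.5%, the median morphant level 6.43% and the median difference -19.6 points.

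**Figure D5:**
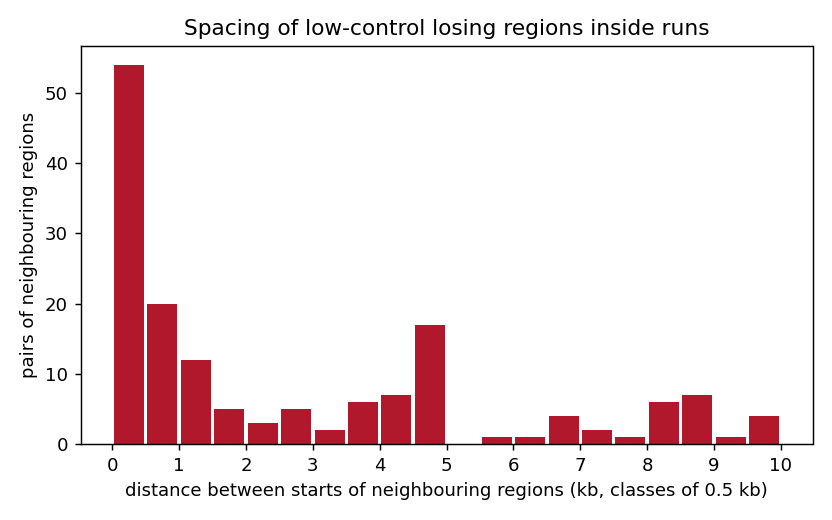
Distances between the starts of neighbouring members of a run (horizontal axis, kb, in classes of 0.5 kb) and the number of pairs in each class (vertical axis). The class under 0.5 kb is the fullest, with 54 pairs, and 17 pairs fall between 4.5 and 5 kb.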

How the data were processed

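Bisulfite and RNA libraries came from 3 control and 3 morphant samples each, grouped by the genotype in the labels. Per the submitters' processing notes, BS-Seeker2 2.1.8, HISAT2 2.2.1 and HTSeq 0.12.4 were used with the build GRCz11, with no role given for each. The region caller, the coverage minimum and the way replicates were combined were stated neither in the labels nor in the file. Per its header, the deposited region table gives each group's methylation fraction, the difference (a score here), a count of CpG sites and an FDR, taken as the authors' q-value and under 0.05 throughout. Fractions were multiplied into percentages, and differences are morphant minus control in percentage points. Chromosome numbers follow the order of the RefSeq sequence names. Coordinates are as deposited, on GRCz11, and whether they count from 0 or 1 is not stated. Length is end minus start. The other file gave deposited TPM values, used as listed with no pseudocount and no test; 18 other columns of values were not used.

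The members and marker lists were chosen with earlier results of these data known. Regions named are the members with the largest loss, the lowest morphant and control levels, the most sites, the smallest q and the greatest length, those next to the 2 limits, and those in the longest runs; runs of 4 were added after their values were seen. No test was made, since the table has no values per replicate and lists only regions past the authors' threshold, so the number of regions they tested is unknown. Intervals are exact binomial (Clopper-Pearson, 95%, SciPy 1.17.1) and cover counting error only. The steps were checked on simulated regions. Analysis used Python 3.11.15 and pandas 2.3.3.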

Additional observations from a re-analysis of the deposited data

How the results depend on the processing

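When 9 results were recomputed under 13 settings, 84 values stayed within 1.5 times a count, within the interval of a share, or within 1 SD over members of a median, and 17 moved. The SD over members is the spread between regions and not the error of a median, so medians seldom counted as moved. As reported, members made up 26.2% of sparse losing regions, with 290 in runs and a losing share of 92.4%. With a loss of at least 25 points there were 248 members, with a median difference of -28.1 points, 12.3% of sparse losing regions, 18 in runs and a losing share of 89.9%. With a control limit of 30% there were 653 members (14.4%), 112 in runs, and with one of 50% the share was 38.1%, with 494 in runs. The median levels followed this limit. At 30% they were 22.4% in controls and 3.71% in morphants, and at 50% they were 34.0 and 9.59%. As reported they were 28.5 and 6.49%, and by the SD rule these medians counted as unmoved. With under 5 sites per 100 bases there were 625 members, 86 in runs, and a losing share of 94.6%. With at least 10 sites the shares were 27.7% and 94.0%, with 173 in runs, and with q under 0.01 there were 161 in runs. These settings remove or add regions by construction. No paired analysis was possible because the region table holds no value per replicate, and for the same reason no replicate could be left out. An annotation of the regions was not made for want of one of their build. Read depth is unknown, so the precision of single levels cannot be given.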

Other observations

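Regions set aside by the rule for their place or density had similar levels. The same control limit and the same smallest difference applied to them, so this likeness is in part set by the selection. On chromosome 4, 35 of 314 sparse losing regions (11.1%) had a control level under 40%, with medians of 29.2% in controls and 8.26% in morphants. On unplaced scaffolds it was 199 of 978 (20.3%), with medians of 29.8 and 8.59%. Both shares were lower than the members' share on the other chromosomes, 1187 of 4525 (26.2%). A further 137 regions on the other chromosomes met the rule except for a density of 10 or more sites per 100 bases. They were shorter, with a median of 90 bases and 11 sites, and went from a median of 29.7% to 8.61%. No test of these differences was made.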
